A study of Mus musculus with 8 samples.

Results

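Of 47377 autosomal TET1 regions that had a peak in all 3 mock-treated libraries, 24029 (50.7%) lay in 269 bins of 1 Mb that each held 50 or more of them. These 269 bins, called dense here, made up 10.8% of the 2482 bins from the start of chromosomes 1 to 19 to the last region on each. The regions were obtained by merging overlapping or touching peaks of the 6 deposited lists, which gave 137027 regions in all, and each region was placed in a bin by its midpoint. The members were chosen by the presence of peaks in the mock lists and their number per bin, so these values are a description and support nothing further. The lists came from chromatin immunoprecipitation and sequencing (ChIP-seq) of HA-tagged endogenous TET1 in mouse embryonic stem cells, with 3 mock-treated and 3 nuclease-treated libraries. All cells had the genotype HA-Tet1; the series text names the line as E14TG2a, and the labels give the strain as C57BL/6N. Permeabilised cells were kept for 20 min with RNase H1 at 0.2 U/ul plus Nuclease S1 at 0.05 U/ul, or were mock treated, and were then crosslinked with disuccinimidyl glutarate and formaldehyde. The sample labels name only RNAse H1 for the treated group, and no sample received a single enzyme. The protocol gives each replicate its own chromatin but does not say whether they came from separate cultures, so a p-value here reflects the spread among these libraries alone, which may be technical. A single pooled input per condition served the peak calls of its 3 libraries, so these are not fully independent.

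TET1 is a dioxygenase that oxidises 5-methylcytosine. In embryonic stem cells it is known to bind CpG-rich DNA, much of it at promoters, and CpG islands and genes are unevenly spread along mammalian chromosomes. An R-loop is an RNA paired with one DNA strand while the other DNA strand is left single; RNase H1 removes the paired RNA and Nuclease S1 cuts the unpaired strand. Positions are on mm9. Bins and regions are named by position alone, because no mm9 sequence or gene models were used, and no gene, exon or promoter is given for them.

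The dense bins were concentrated on part of the autosomes and adjoined one another. Chromosome 11 carried the most, 35 of its 122 bins (28.7%), with 3295 regions. Chromosomes 2, 4, 5, 7, 8, 11, 15 and 17 together held 203 of the 269 bins (75.5%) and 18727 of the regions. At the other end, chromosome 13 had 1 dense bin, chromosomes 12 and 14 had 2 each and chromosome 3 had 3. On chromosome 15, 71.1% of such regions lay in dense bins, against 7.74% on chromosome 13. The 269 bins formed 106 runs of adjoining bins, and 225 of them (83.6%) had a dense neighbour. The longest runs were 10 Mb, on chromosome 11 from 94 to 104 Mb with 1021 regions and on chromosome 4 from 132 to 142 Mb with 1006 regions. A run of 9 Mb lay on chromosome 2 from 25 to 34 Mb, and runs of 8 Mb lay on chromosome 11 from 113 to 121 Mb and on chromosome 5 from 111 to 119 Mb and from 134 to 142 Mb. On chromosome 17 a run of 7 Mb from 23 to 30 Mb held 874 regions. Over the 212 sides of the runs, the adjoining bin had a median of 23.5 regions. A bin between 2 runs was counted for both, and positions without a region were included. The median over all 2383 bins with a region was 9, which leaves out bins without one.

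**Figure D1:**
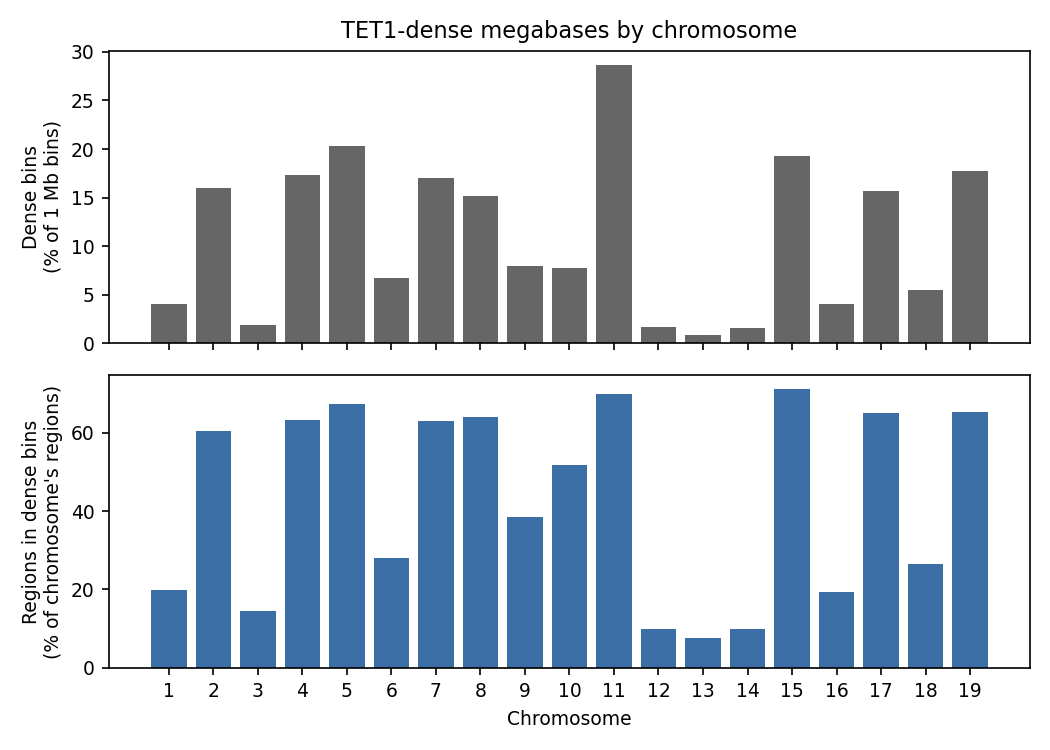
The upper bars give dense bins as a percentage of the 1 Mb bins of each autosome, and the lower bars give the percentage of the chromosome's regions (those with a peak in all 3 mock lists) that lay in dense bins. Chromosome 11 has the highest bar above (28.7%) and chromosome 15 below (71.1%), while chromosomes 3, 12, 13 and 14 are low in both.

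The 10 bins with most regions lay on chromosomes 4, 7, 8, 10, 11 and 17. The top bin was chromosome 10 from 79 to 80 Mb with 253 regions, and its neighbour from 80 to 81 Mb followed with 237. Chromosome 8 from 124 to 125 Mb held 206 and from 122 to 123 Mb 188. Chromosome 17 from 56 to 57 Mb held 200, and both chromosome 17 from 27 to 28 Mb and chromosome 7 from 52 to 53 Mb held 199. These were followed by chromosome 11 from 115 to 116 Mb with 191, chromosome 11 from 117 to 118 Mb with 187 and chromosome 4 from 140 to 141 Mb with 185. Of the 269 bins, 190 had 50 to 99 regions, 58 had 100 to under 150 and 21 had 150 or more. Just inside the threshold, 8 bins had 50 or 51 regions, and just outside it 8 bins had 48 or 49. The median recovery of regions in the nuclease-treated lists was 77.9% over the former (70.6 to 88.0%) and 80.3% over the latter (64.6 to 83.0%). Bins at the threshold thus had overlapping recoveries on either side, and some adjoined, such as those on chromosome 1 from 134, 135 and 136 Mb with 51, 49 and 50 regions.

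Regions in dense bins were close together and wide, and their median strength was near that of regions elsewhere. The median gap between neighbouring regions of a bin was 3447.5 bp in dense bins and 30038 bp in the other bins, as the choice of bins implies. Strength is given as summit coverage over background, which is the number of fragments over a peak's summit divided by the mean coverage of the genome in that library. Averaged over the 3 mock libraries, its median was 10.4 times background in dense and 10.2 in other bins. Regions of 15 times background or more made up 23.0% of the dense and 26.5% of the other regions. Peak width per region, summed over its peaks in a list, had a median of 646, 670 and 622 bp in mock replicates 1, 2 and 3 in dense bins and of 589, 596 and 577 bp in other bins. After merging all 6 lists, 11.2% of the regions in dense bins were 2 kb or wider against 4.44% elsewhere. Dense regions were thus wider in each mock library. A dense region with a peak held on average 1.12, 1.10 and 1.10 peaks in mock replicates 1, 2 and 3 and 1.17, 1.17 and 1.16 in nuclease-treated replicates 1, 2 and 3, against 1.03 to 1.04 and 1.06 to 1.07 in other bins. Within the dense bins, the median merged width was 865 bp in bins of 50 to 99 regions, 947 bp in bins of 100 to under 150 and 1036 bp in bins of 150 or more. Mock lists chose these regions, so their widths and strengths are descriptions.

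Peaks in the dense bins were fewer on average and covered less sequence after nuclease treatment. The 269 bins held 39831, 39196 and 35237 peaks in mock replicates 1, 2 and 3 and 34945, 31586 and 36100 in nuclease-treated replicates 1, 2 and 3. The groups overlapped, since nuclease-treated replicate 3 had more peaks than mock replicate 3. These peaks covered 25.7, 26.5 and 23.7 Mb in the mock and 20.7, 18.7 and 22.1 Mb in the nuclease-treated libraries, with every nuclease-treated library below every mock library. Their mean width was 665 ± 16.6 bp in mock and 599 ± 12.6 bp after treatment (SD, n = 3 each). On average there were 142 ± 9.25 peaks per dense Mb in mock and 127 ± 8.72 after treatment, against 18.2 ± 1.32 and 15.3 ± 1.72 per Mb in other bins (SD, n = 3 each). Over all autosomes the lists held 82126, 80862 and 72205 peaks in mock and 69627, 61213 and 73197 after treatment. Mock lists chose the dense bins, which favours higher mock values there, so the values in dense bins are descriptions.

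The strongest peaks became fewer by about the same factor in dense and other bins. Over all peaks of 10 times background or more, the strongest included, the factor was nearer to 1 in dense bins. Peaks of 20 times background or more in dense bins numbered 2890, 2987 and 2867 in the mock and 651, 679 and 685 in the nuclease-treated libraries, a ratio of group means of 0.230. In other bins they numbered 3273, 3292 and 3649 in mock and 712, 764 and 816 after treatment, a ratio of 0.224. In both kinds of bins every nuclease-treated library had far fewer such peaks than any mock library. Peaks of 10 times background or more in dense bins numbered 14554, 14531 and 13047 in mock and 9460, 9868 and 9626 after treatment, a ratio of 0.687, against 0.596 in other bins. The difference between these ratios was not tested, because the mock lists had chosen the bins.

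To compare the groups without that choice, bins were taken from 2 mock lists and read in the left-out mock list and in the nuclease-treated lists, whose values were averaged over the 3 such choices (298, 293 and 319 dense bins with mock replicate 1, 2 or 3 left out). The dense bins held 51.52, 50.97 and 53.60% of the autosomal peaks of mock replicates 1, 2 and 3 and 53.71, 55.09 and 52.84% of those of nuclease-treated replicates 1, 2 and 3. Over these values the groups overlapped, with a difference of 1.85 percentage points (exact two-sided permutation p = 0.2, adjusted 0.2 by Benjamini-Hochberg over the 4 measures tested; the smallest p that 3 libraries against 3 allow is 0.1). Each mock value came from its own set of bins, while each nuclease-treated value was a mean over 3 sets, and the numbers of bins differed. The same holds for the other measures read in this way. The SDs of the groups are therefore not like for like, and the libraries are not strictly exchangeable in the permutation. Within each of the 3 choices every nuclease-treated library was above the left-out mock library, for example 53.22, 54.64 and 52.38% against 51.52% in the 298 bins read with mock replicate 1 left out. With 269 bins taken in each choice the groups did not overlap and the difference was 1.78 points (exact permutation p = 0.1). It was lowest, 1.15 points, when peaks with a local background over 2 times genome-wide were left out. Local background is the fragment level that the peak caller expected around a summit. Local background was higher after treatment, so that filter need not fall evenly on the groups. The difference was highest, 2.73 points, with a stricter q-value threshold. Over all 14 alternatives the exact permutation p ranged from 0.1 to 0.5.

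At equal mock strength, regions in dense bins had a peak after nuclease treatment more often than regions in other bins. For this comparison, regions with a peak in 2 mock lists were ranked into 10 groups by their mean coverage in those libraries, and other bins were weighted to the strengths found in dense bins. In the left-out mock libraries, replicates 1, 2 and 3, a peak was found in 90.2, 90.0 and 84.0% of the regions in dense bins and in 88.6, 88.1 and 82.7% of those in other bins. In the nuclease-treated libraries, replicates 1, 2 and 3, a peak was found in 77.2, 72.8 and 79.0% in dense and 71.4, 66.1 and 74.1% in other bins. With strength alone matched, dense bins were higher in each of the 6 libraries. The gap, dense minus other, was 1.54, 1.92 and 1.29 points in mock and 5.75, 6.70 and 4.89 points after treatment, so the groups did not overlap. The gaps averaged 1.58 ± 0.320 and 5.78 ± 0.903 points (SD, n = 3 each) and differed by 4.20 points (exact two-sided permutation p = 0.1, the smallest possible; adjusted 0.133). The difference was smaller, by unequal amounts, with regions also matched on width or mock local background. It was also smaller with peaks of high local background left out. When regions were also matched on merged width, the mean gap was -0.58 points in mock and 1.58 after treatment, a difference of 2.16. Merged width includes the peaks of the libraries being read, so a region can be wider because a peak was found there. This matching is thus partly on the outcome. Matched on peak width in the mock lists, the gaps were 0.294 and 3.34 points, a difference of 3.04. The difference was 1.99 points, from gaps of 1.57 and 3.55, after leaving out peaks whose local background exceeded 2 times that of the genome (exact permutation p = 0.1 for each). That filter is not a matching. Median local background in dense bins was 1.24 to 1.26 times genome-wide in mock and 1.58 to 1.61 after treatment, nearer to the cut-off. The filter therefore need not fall evenly on the groups, and its value cannot show what local background accounts for. Matching on mock local background gave 3.75 points. By mean peak width in the mock lists, regions of up to 500 bp had a recovery of 61.5% in dense and 55.6% in other bins, those of 500 to 1000 bp 86.2 and 84.9%, and those of 1000 to 2000 bp 98.2% in both (means over the 3 nuclease-treated lists, not matched on strength). Beyond these matchings, how far width and local background account for the gap was not tested.

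The gap after treatment was widest from the third to the seventh strength group and closed at the top. In the lowest strength group, a peak was found after treatment in 45.2 ± 5.14% of regions in dense and 42.9 ± 6.26% in other bins (SD, n = 3 each). In the third group from the bottom the values were 63.1 ± 4.49% and 54.1 ± 5.66%, a gap of 9.02 ± 1.25 points, where the left-out mock libraries had a gap of 3.89 ± 0.213 points (SD, n = 3 each). In the seventh group the gap was 7.78 ± 1.41 points after treatment and 0.592 ± 0.264 in mock (SD, n = 3 each). In the top group 99.4 ± 0.138% and 99.1 ± 0.263% had a peak after treatment (SD, n = 3 each). Nearly every strong region was still called there, in dense and other bins alike, so recovery can show no difference at that strength.

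**Figure D2:**
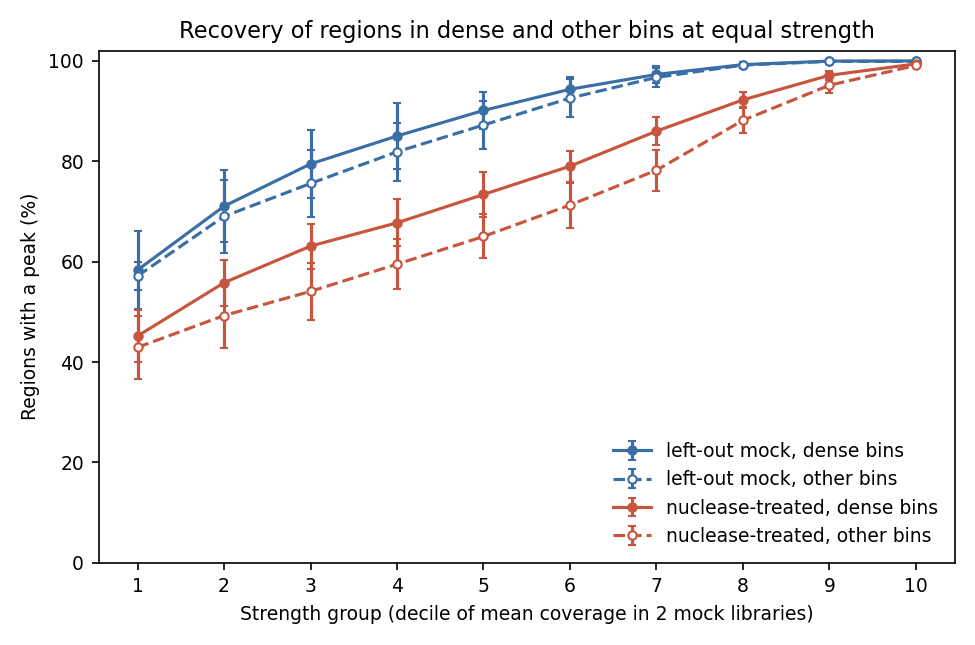
Percentage of regions with a peak (vertical axis) by strength group, the decile of mean coverage in 2 mock libraries (horizontal axis), for dense bins (filled, solid) and other bins (open, dashed); points are means and bars the SD of 3 left-out mock (blue) or 3 nuclease-treated (red) libraries. The red lines are farthest apart in the third group (63.1 against 54.1%), and all 4 lines meet near 99% in the top group.

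Summit coverage after treatment was slightly higher in dense bins than in other bins at equal mock strength. Over regions with a peak in all 6 lists, mean coverage in dense bins was 12.98, 13.09 and 12.64 times background in the left-out mock replicates 1, 2 and 3 and 10.45, 10.52 and 10.35 in nuclease-treated replicates 1, 2 and 3 (geometric means). In other bins it was 12.72, 12.67 and 13.33 times background in mock and 9.88, 10.02 and 9.87 after treatment. Each nuclease-treated library was higher in dense bins, while mock replicate 3 was lower there. The gap on the log2 scale, dense minus other, was 0.03, 0.05 and -0.08 in mock and 0.08, 0.07 and 0.07 after treatment. The gaps averaged 0.00 ± 0.067 and 0.07 ± 0.0064 (SD, n = 3 each) and differed by 0.07, or about the spread among the mock libraries (exact two-sided permutation p = 0.1, adjusted 0.133). Each mock gap came from 1 choice of bins and each nuclease-treated gap was a mean over 3 choices, so the SDs are not like for like. In nuclease-treated replicate 1 the gap was 0.086, 0.092 and 0.066 with mock replicate 1, 2 or 3 left out. Mock replicate 3 stood apart in this measure. In the choices with mock replicate 1 or 2 left out, the mock gaps were 0.029 and 0.048. The nuclease-treated gaps in those choices were 0.074 to 0.092. Dropping a mock replicate altogether takes regions, bins and strength from 1 mock list at a time, unlike the main value. Read in that way, the difference was 0.06 without mock replicate 3 and 0.09 without mock replicate 2 (exact permutation p = 0.1 for both). Leaving out any nuclease-treated replicate gave an exact permutation p of 0.2. With the stricter q-value threshold, which leaves peaks with a −log10 q of 6.59 or more, the difference was 0.05 and the groups overlapped (exact permutation p = 0.3).

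**Figure D3:**
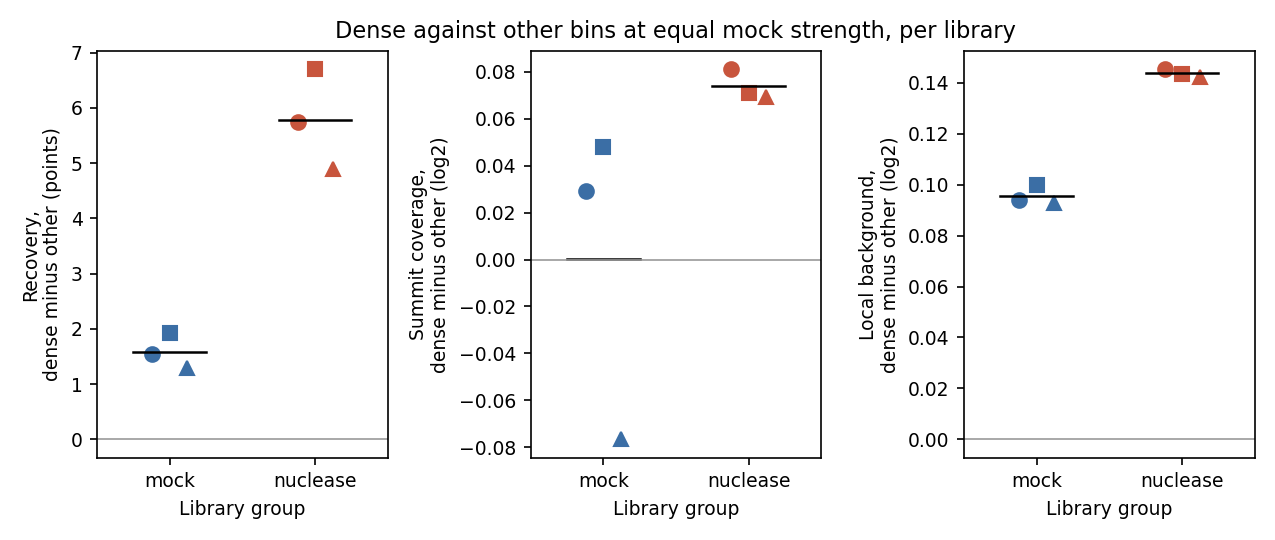
Dense minus other bins at equal mock strength for recovery (percentage points), summit coverage (log2) and local background (log2), with a point for each library (circle, square and triangle for replicates 1, 2 and 3) and a line at the group mean. The nuclease-treated points lie above the mock points in each panel, with mock replicate 3 at -0.08 in the middle panel.

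From 10 to 24 regions per bin upward, both recovery and coverage after treatment were higher in each denser class; recovery was not lowest in the sparsest bins. With strength standardised to that of dense bins, recovery after treatment was 73.6 ± 4.19% in bins of 1 to 9 regions, 69.1 ± 4.23% in bins of 10 to 24 and 70.2 ± 3.76% in bins of 25 to 49. It was 75.2 ± 3.53% in bins of 50 to 99, 76.8 ± 2.96% in bins of 100 to under 150 and 78.7 ± 2.47% in bins of 150 or more (SD, n = 3 each). Neighbouring classes overlapped in their replicate values, since the libraries differed by several points throughout, but each nuclease-treated library gave the 6 classes in this same order. The left-out mock libraries also had their lowest means in the middle, with 88.4 ± 1.70% in the sparsest class, 85.6 ± 4.38% in bins of 25 to 49 and 88.8 ± 3.36% in the densest (SD, n = 3 each). From the left-out mock to the nuclease-treated mean, recovery dropped by 14.8 points in the sparsest class, dropped by 16.9 points in bins of 10 to 24 regions and dropped by 10.1 points in the densest class. Coverage after treatment was 9.83 ± 0.137 times background in the sparsest class and 10.6 ± 0.0791 in the densest (SD, n = 3 each), where the 3 nuclease-treated libraries of each class did not overlap. In the mock libraries it was 12.7 ± 1.04 and 12.9 ± 0.288 (SD, n = 3 each), where mock replicate 3 stood at 13.92 in the sparsest class against 12.26 and 11.99 in replicates 1 and 2. The share of mock coverage kept after treatment, as a ratio of group means, was 0.772 in the sparsest class, 0.757 in bins of 10 to 24 regions, 0.801 in bins of 50 to 99 and 0.823 in the densest class. Without mock replicate 3 and its choice of bins these ratios were 0.8002, 0.7648, 0.7941 and 0.8141, so the difference between the densest and the sparsest class, 0.050 with all libraries, was 0.014 and rested mainly on that library.

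**Figure D4:**
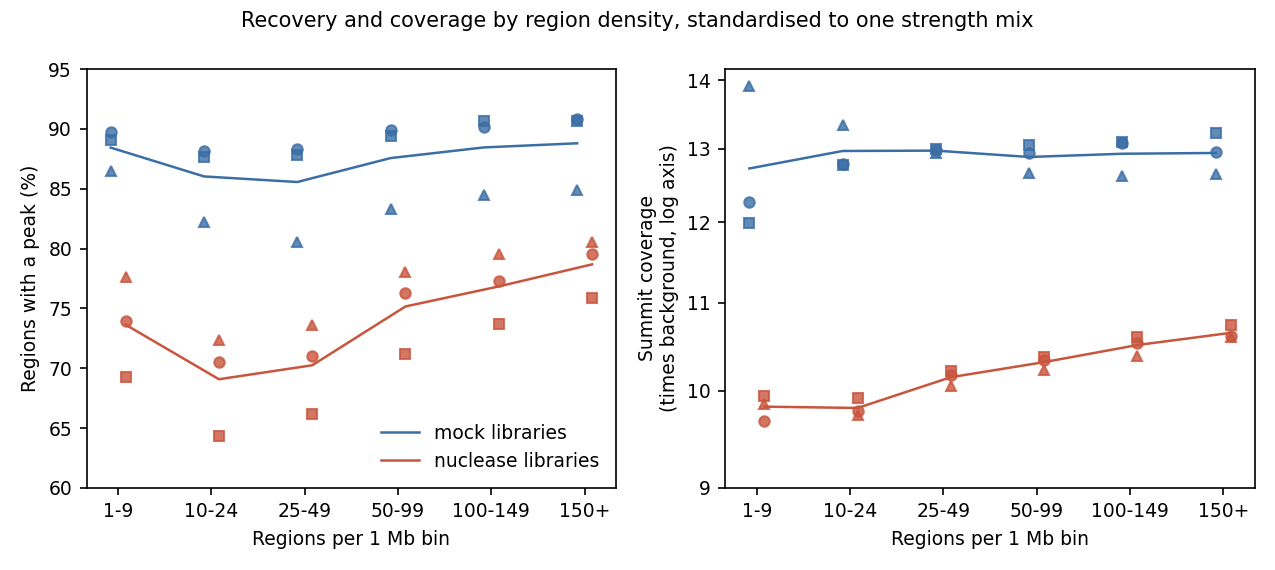
Recovery (left, per cent of regions) and summit coverage (right, times background, log axis) by the number of regions per 1 Mb bin, standardised to the strength mix of dense bins; points are libraries (circle, square and triangle for replicates 1, 2 and 3) and lines are group means. In nuclease-treated libraries (red) recovery is lowest at 10 to 24 regions (69.1%) and highest at 150 or more (78.7%), and coverage is 9.83 in the sparsest and 10.6 in the densest class.

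Local background was also higher in dense bins, and more so after treatment. At equal mock strength it was 1.33 times the genome-wide level in dense and 1.24 times in other bins in mock, and 1.63 and 1.47 times after treatment (geometric means over regions with a peak in all 6 lists). On the log2 scale the gap was 0.09, 0.10 and 0.09 over the mock libraries in replicate order, and 0.15, 0.14 and 0.14 over those treated with nucleases, so the groups did not overlap (exact two-sided permutation p = 0.1, adjusted 0.133). With 1 pooled input behind the 3 libraries of a group, input and treatment cannot be told apart in this measure.

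Regions lost from all nuclease-treated lists were fewer in dense bins. Of the 24029 regions there, 1243 (5.17%) had no peak in any nuclease-treated list, against 6.64% over all 47377 regions and 8.15% (1902 regions) in other bins. At equal mock strength the other bins had 7.98%. These shares depend on how many lists a region must be in: with any 1 library left out, 7.60 to 9.47% of regions in dense bins and 11.02 to 13.74% in other bins at equal strength were lost. The remaining regions in dense bins had a peak in 1 nuclease-treated list (10.9%), in 2 (19.0%) or in all 3 (64.9%), where the shares in other bins were 13.7%, 20.3% and 57.8%. The lost share fell from 5.66% in bins of 50 to 99 regions to 4.86% in bins of 100 to under 150 and 4.05% in bins of 150 or more. In the lowest strength group, formed here on the mean of all 3 mock libraries, 16.3% of regions in dense and 19.0% in other bins were lost. Of regions at 10 times background or more, 204 of 12722 in dense bins (1.60%) and 335 of 12040 elsewhere (2.78%) were lost, against 2.18% of both together. Of regions at 15 times background or more, 18 of 5522 in dense bins (0.326%) and 33 of 6193 elsewhere (0.533%) were lost, against 0.435% of both together. No test was made of these counts, since regions are not replicates. In the other direction, 571 autosomal regions had a peak in all 3 nuclease-treated lists and in no mock list, and 276 of them (48.3%) lay in the dense bins. The dense bins held 53.4% of all regions with a peak in all 3 nuclease-treated lists, and 43.8% of all merged autosomal regions. When dense bins were instead taken from regions with a peak in all 3 nuclease-treated lists, 179 bins had 50 or more, and all 179 were among the 269 (66.5% of these).

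Coverage was lower in every nuclease-treated than in every mock library at 6249 of the 15597 regions in dense bins with a peak in all 6 lists (40.1%). Over all 29094 autosomal regions of that kind the share was 44.8%, and in other bins it was 50.3%, or 45.6% at equal mock strength. The opposite order, with every nuclease-treated library higher, was found at 269 regions in dense bins (1.72%), against 1.39% overall. Strength here was the mean of all 3 mock libraries, whose coverages are also the ones compared, so high groups favour lower nuclease-treated values. Over both kinds of bins the share of lower regions was 0.840% in the lowest group and 90.7% in the top group. In 9 of the 10 strength groups the share of lower regions was smaller in dense bins, for example 34.2 against 45.9% in the seventh. In the top group the order turned, with 93.0% in dense and 88.8% in other bins, although the median ratio of nuclease-treated to mock coverage was still 0.626 in dense and 0.611 in other bins. No single region can pass a test with 3 libraries against 3, and none is called here.

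Dense bins varied among themselves in recovery. Mean recovery over the 3 nuclease-treated lists was 80.8% in the median dense bin, with quartiles of 77.3 and 84.0% and a range from 60.1 to 93.8%. Compared with other bins of the same strengths, 239 of the 269 bins (88.8%) were higher, 172 of them in all 3 nuclease-treated libraries, and 5 were lower in all 3. The median excess was 4.75 points. Part of such an excess was present without treatment, as the mock gap of 1.58 points above shows. Over regions with a peak in all 6 lists, the median ratio of nuclease-treated to mock coverage was under 1 in each of the 269 bins. It ran from 0.697 to 0.917, with a median of 0.811. Regions missed by any nuclease-treated list are left out of this ratio. On chromosome 10 from 59 to 60 Mb it rests on 25 of 61 regions. Across bins, the number of regions and recovery had a Spearman correlation of 0.33 (Pearson 0.34, n = 269 bins). All bins share the same 6 libraries, and dense bins also had wider regions (Spearman 0.37 between number of regions and median width), so this is a description. Recovery was 80.0% in the 44 bins without a dense neighbour, 82.3% in the 54 bins in runs of 2 and 81.2% in the 171 bins in runs of 3 or more. By chromosome it ranged from 74.7% on chromosome 14, with 2 dense bins, to 87.4% on chromosome 13, with 1.

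The lowest recovery was in chromosome 10 from 59 to 60 Mb, where 60.7, 54.1 and 65.6% of 61 regions had a peak in nuclease-treated replicates 1, 2 and 3. All 3 were below the 70.5% of other bins at the same strengths, and 12 of the 61 regions were lost from all 3 lists. Chromosome 5 from 118 to 119 Mb followed with 72.2, 61.1 and 72.2% of 72 regions, and chromosome 2 from 151 to 152 Mb with 72.2, 72.2 and 64.8% of 54. The highest recovery was in chromosome 11 from 70 to 71 Mb, with 94.4, 90.7 and 96.3% of 54 regions. Chromosome 11 from 120 to 121 Mb had 90.2, 91.7 and 90.9% of 132 regions and chromosome 15 from 89 to 90 Mb had 90.9, 89.1 and 92.7% of 55. The 3 bins of highest recovery had stronger regions (median mock coverage 13.2 to 15.1 times background) than the 3 of lowest recovery (8.46 to 9.22). The top bin by number of regions, on chromosome 10 from 79 to 80 Mb, had 90.9, 87.4 and 88.5% of its 253 regions, and lost 6 from all 3 lists. Chromosome 8 from 122 to 123 Mb lost the most of any dense bin, 14 of 188.

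**Figure D5:**
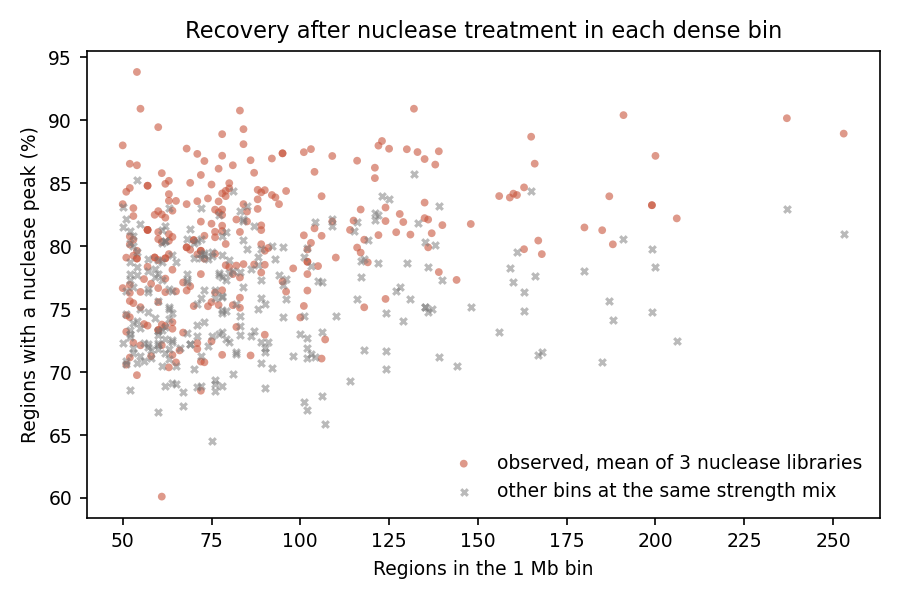
Percentage of a dense bin's regions with a peak after nuclease treatment, averaged over 3 libraries (red points), by its number of regions, with the value of other bins weighted to the same strengths (grey crosses). Observed values run from 60.1 to 93.8%, and the point at 60.1% is chromosome 10 from 59 to 60 Mb.

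The strongest regions of the dense bins kept unequal parts of their coverage. The strongest lay on chromosome 7 from 134919814 to 134921747, in a bin of 109 regions. Its coverage was 91.0, 86.5 and 84.0 times background in mock replicates 1, 2 and 3 and 33.7, 30.6 and 33.9 in nuclease-treated replicates 1, 2 and 3. The groups were far apart, at a ratio of means of 0.376. In the neighbouring bin, the region on chromosome 7 from 133645020 to 133647416 had 79.0, 90.5 and 80.2 times background in mock and 47.98, 57.02 and 58.06 after treatment, a ratio of 0.653. The region on chromosome 4 from 133368804 to 133370633 had 71.0, 82.0 and 63.8 times background in mock and 20.0, 21.8 and 24.1 after treatment, the lowest ratio of the 6 strongest, 0.304. The highest ratio, 0.716, was on chromosome 11 from 97488218 to 97491928, with 67.5, 65.4 and 66.2 times background in mock and 42.8, 52.9 and 46.9 after treatment. The other 2, on chromosome 6 from 113256506 to 113258118 and chromosome 19 from 3767227 to 3769194, had ratios of 0.360 and 0.344. In all 6 regions every nuclease-treated library lay below every mock library; the regions were picked for high mock coverage, so no test was made.

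In the top bin, the strongest region was chromosome 10 from 79895581 to 79896967, with 32.4, 33.6 and 52.1 times background in mock and 19.0, 19.7 and 31.3 after treatment. Its replicates differed widely within each group, with replicate 3 highest in both. The next, from 79515670 to 79518258, had 40.8, 36.3 and 37.5 times background in mock and 27.1, 27.5 and 26.4 after treatment, with no overlap. The third was a merged region of 12010 bp from 79606481 to 79618490, with 35.5, 33.2 and 43.6 times background in mock and 23.3, 27.5 and 26.4 after treatment.

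Of the regions lost from all nuclease-treated lists, the strongest in dense bins reached about 20 times background. The region on chromosome 11 from 98261102 to 98261894 had 21.3, 22.8 and 23.0 times background in mock replicates 1, 2 and 3. On chromosome 10, within the top bin, the region from 79209054 to 79209489 had 22.2, 18.4 and 19.7, with a local background of 2.16 times that of the genome. On chromosome 17 the region from 56084271 to 56085050, in a bin of 200 regions, had 15.5, 20.2 and 17.4. The other 3 of the 6 strongest, on chromosome 4 from 107562171 and on chromosome 2 from 165372574 and from 152673682, averaged 18.9, 18.7 and 17.7 times background. They were narrow, with 470 to 698 bp. The lists give no coverage where no peak was called, so how far the coverage of these regions fell is not known.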

How the data were processed

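TET1 peaks of 6 ChIP libraries (3 mock, 3 nuclease-treated, grouped by sample title) were analysed; the 2 pooled inputs are not analysed here on their own. Per the submitters' processing notes, MACS2 2.1.1, Bowtie2 2.2.8, bedtools 2.25.0 and SAMtools 1.3.1 were used with mm9, with parameters not given in the sources used here. The deposited lists hold, per peak, a fold over local background, a −log10 p-value and −log10 q-value, and a whole-number score, the −log10 q multiplied by 10 and truncated. The deposited positions were read as 0-based and are printed 1-based. Whole-number summit coverage (up to 2000 fragments tried) was solved from the authors' fold and p with MACS2's formulas; all but 1 peak matched within 0.001 of the −log10 p, and that peak took the genome-wide background. Coverage was divided by the most frequent local background of the list, 1.93 to 2.25 fragments, and a region took its highest peak in each list. Lists held 62161 to 83601 peaks; sequencing depth is unknown, and single peaks are imprecise, with a median of 16 to 18 fragments over the summit.

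Groups were compared by exact two-sided permutation of the difference of means over 20 label orders, adjusted by Benjamini-Hochberg over 4 measures (Python 3.11.15, scipy 1.17.1). Alternatives varied the bin threshold and edges, merging, q threshold, strength measure, matching, local background, block and libraries. Procedures were tested on simulated data. Named bins were the 10 with most regions, the 3 of lowest and of highest recovery, and those with 48 to 51 regions. Named regions were the 6 strongest, the 6 strongest lost ones and the 3 strongest of the top bin. Chromosome 8 from 122 to 123 Mb was singled out for its lost regions after its values were seen. Members and lists were chosen with earlier results of these data known.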

Additional observations from a re-analysis of the deposited data

How the results depend on the processing

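Of 90 recomputed values none changed direction, but some could not. The 9 counts of dense bins have no direction, and the 4 values with a replicate block repeat the main values with another test. These 4 are also among the 68 values with a test. No test of 3 libraries against 3 can pass 0.05, so keeping a side of that threshold says nothing. Of the 68 values with a test, 5 changed by over 1.5 times: the recovery difference of 4.20 points became 1.99 without peaks of high local background and 2.16 with merged width matched, the coverage difference became 0.05 (log2) with a stricter q-value threshold, the local background difference became 0.03 (log2) against other bins of 10 to 49 regions, and the share of peaks became 1.15 points without peaks of high local background. Of the 22 values without a test, 8 were counted as moved. These were the count of dense bins with a stricter q-value threshold, by over 1.5 times, and all 7 shares of lost regions. The shares were set against a binomial error over regions, which are not replicates. For them, being counted as moved does not show a change beyond the spread among libraries. Coverage kept, densest minus sparsest bins, was set against the spread among mock libraries. Its fall from 0.050 to 0.014 without mock replicate 3 was not counted as moved. The 269 dense bins became 132 with a stricter q-value threshold, which leaves fewer peaks, 222 at 60 or more and 327 at 40 or more regions, and 293 to 319 without 1 mock replicate. The share of lost regions, dense minus other at equal strength, went from -2.81 points to -1.57 among regions of 10 times background or more, where fewer regions are lost, and to between -4.28 and -3.17 without 1 replicate, which loosens the requirement. Without 1 replicate the recovery difference ranged from 3.24 to 4.64 points and the coverage difference from 0.06 to 0.09 (log2). Where that replicate was a mock one, regions, bins and strength for the measures with a test came from 1 mock list at a time. Those values thus differ from the main ones in definition as well as in libraries. Deviations of same-numbered libraries correlated at 0.012, -0.0046 and 0.037, and those of differently numbered libraries at -0.040 to 0.032. No pairing by replicate number was seen, but single summits are imprecise, so this cannot show that such libraries were prepared apart. With a replicate block, the exact sign-flip test gave p = 0.25, the smallest it allows, for recovery (4.20 points), coverage (0.07) and local background (0.05), and p = 0.5 for the share of peaks (1.85 points). Matching on mock peak width or mock local background, a fixed number of bins, leaving out the 3 fullest bins and regions of 10 times background or more for recovery, and density classes without a library, were alternatives chosen after seeing the data.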
